A study of Mus musculus with 60 samples.

Results

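The genes that encode the enzymes of DNA methylation and demethylation were followed in R1 mouse embryonic stem cells, an established line, exposed to 19 medicines and related compounds. The 9 genes, Dnmt1, Dnmt3a, Dnmt3b, Dnmt3l, Uhrf1, Tet1, Tet2, Tet3 and Tdg, were chosen by symbol from the 19938 gene symbols tested. Of these 9 genes, 8 had a probe set annotated to that gene alone, and the brightest such probe set stood for the gene. Tdg had 4 probe sets, each annotated also to the pseudogene Tdg-ps2, and is treated separately.

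DNA methyltransferases add a methyl group to cytosine, mostly where a guanine follows. DNMT1, brought to newly copied DNA by UHRF1, restores methylation after replication, whereas DNMT3A and DNMT3B methylate new sites, helped by DNMT3L, which has no catalytic activity of its own. TET1, TET2 and TET3 oxidise the methyl group, and the glycosylase TDG removes the oxidised bases so that repair can restore cytosine. Mouse embryonic stem cells are known for high Dnmt3l and Tet1 expression, and their methylation falls and rises with the culture state.

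The study asked how compounds called teratogens and non-teratogens change expression in these cells, with 20 groups of 3 Affymetrix mouse gene arrays each, 60 arrays in all. The teratogens were VPA (valproic acid), topiramate, dimethadione, fluconazole and penicillamine at 1 mM, thalidomide at 0.35 mM, dexamethasone at 0.1 mM, retinoic acid at 0.024 mM, methotrexate at 0.028 µM, and azacytidine, whose dose the labels give both as 23 µM and as 0.23 µM. The non-teratogens were paracetamol, sulfasalazine, chlorthalidone and hydrochlorothiazide at 1 mM, glybenclamide at 0.37 mM, metoclopramide at 0.17 mM, ondansetron at 0.054 mM, loratadine at 0.043 mM and clozapine at 0.028 mM. The DMSO group received the solvent alone, at 0.1%, and every exposure lasted 6 h in undifferentiated cells. Doses were set at 10% loss of viability, at 1 mM or at the limit of solubility, so they differ between compounds and no dose series was made. All groups are of 1 cell line, grown on feeder cells that were removed before seeding. The labels call the arrays triplicates without saying that they are separate cultures, so p-values measure the spread between these arrays, which may be technical.

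The values are log2 signals of the RMA method, in which 1 unit is a doubling of signal. On the 60 arrays the mean log2 signal of 15 pluripotency markers lay between 11.28 and 11.73 and that of 14 feeder fibroblast markers between 8.86 and 9.15, with array medians of 7.58 to 7.79. Signals of different probe sets depend on their probes and were not compared in amount. The interquartile range of the arrays ran from 2.974 to 3.315 and was lowest on hydrochlorothiazide replicates 1 and 2 and dexamethasone replicate 3. In RNA from many cells, fewer cells of a type and less RNA per cell cannot be told apart.

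Sequence upstream of the genes that changed is shown first, because retinoic acid acts through nuclear receptors that bind repeats of half-sites such as AGGTCA. RefSeq promoter windows (GRCm38.p6) matched all 9 genes, with 16 annotated starts. The 150 bases shown are those just before each start, out of the 250 searched, and capitals mark the half-site, which on the printed strand reads AGGTCA or, reversed, TGACCT. They lie at chr12:3806830-3806979 (+) and chr12:3891594-3891743 (+) for the first and the third Dnmt3a start, chr2:153649299-153649448 (+) for Dnmt3b, chr10:78042137-78042286 (+) for the first Dnmt3l start, chr10:62887325-62887474 (-) for Tet1 and chr3:133544391-133544540 (-) for Tet2.
Dnmt3a, start 1: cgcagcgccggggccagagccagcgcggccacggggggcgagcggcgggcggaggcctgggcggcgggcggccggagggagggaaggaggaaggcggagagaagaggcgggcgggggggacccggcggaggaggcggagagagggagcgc
Dnmt3a, start 3: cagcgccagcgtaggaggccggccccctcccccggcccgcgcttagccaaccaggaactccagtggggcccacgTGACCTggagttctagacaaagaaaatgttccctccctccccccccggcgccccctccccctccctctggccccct
Dnmt3b: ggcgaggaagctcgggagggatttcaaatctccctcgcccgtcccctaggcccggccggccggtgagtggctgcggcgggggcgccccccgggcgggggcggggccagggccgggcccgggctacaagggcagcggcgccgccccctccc
Dnmt3l, start 1: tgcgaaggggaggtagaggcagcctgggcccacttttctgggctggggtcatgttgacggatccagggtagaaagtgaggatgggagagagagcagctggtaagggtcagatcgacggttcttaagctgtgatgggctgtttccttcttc
Tet1: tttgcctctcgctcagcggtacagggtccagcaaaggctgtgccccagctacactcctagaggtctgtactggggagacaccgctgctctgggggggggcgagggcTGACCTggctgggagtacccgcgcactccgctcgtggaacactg
Tet2: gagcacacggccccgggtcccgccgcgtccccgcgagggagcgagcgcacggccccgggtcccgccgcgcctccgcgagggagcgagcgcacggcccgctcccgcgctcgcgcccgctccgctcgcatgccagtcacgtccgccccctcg

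The Tet2 and first Dnmt3a windows are dense in CpG, the dinucleotide that these enzymes modify. Over the full 250 bases before the start, Tet2 held 51 CpG, the 3 Dnmt3a starts 38, 40 and 15, Dnmt3b 21, Tet1 15 and the 3 Dnmt3l starts 5, 4 and 3. The median over all 32851 windows of the table was 6, with quartiles of 2 and 16. The half-site AGGTCA was present on either strand in 3 of the 16 windows, at the third Dnmt3a start, the second Uhrf1 start and Tet1, against 14.0% of all windows. At the third Dnmt3a start its TG is shared with the E-box CACGTG, a motif found in 3 of the 16 windows and 6.02% of all. Paired half-sites AGGTCANNAGGTCA and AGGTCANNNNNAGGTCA were in none of the 16 windows, and each was in 0.00913% of all. The GC box GGGCGG was in 11 of the 16 and in 32.7% of all. Both strands were searched for each motif, and a match describes letters in a window only.

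Of the 8 genes, 5 changed in at least 1 compound: Dnmt3a, Dnmt3b, Dnmt3l, Tet1 and Tet2. Dnmt1, Uhrf1 and Tet3 passed the test in none. Over the 152 tests of a gene in a compound, 14 passed an adjusted p of 0.05 in limma, 3 higher and 11 lower than in DMSO. They fell in 6 compounds. Retinoic acid changed 4 of the 8 genes, 2 higher and 2 lower, where 9.82% of all probe sets tested were called (5.90% higher, 3.92% lower). Paracetamol lowered 4 of the 8 genes, where 8.76% of all probe sets were called (4.61% higher, 4.15% lower). VPA lowered 3, against a background of 26.5% (15.5% higher, 11.0% lower), the largest of the 19 compounds. Sulfasalazine raised 1 of the 8 (8.90% of all called, 5.40% higher and 3.50% lower), loratadine lowered 1 (19.2%, 10.9% higher and 8.26% lower) and chlorthalidone lowered 1 (2.58%, 1.44% higher and 1.14% lower). A single gene of 8 is near the background for sulfasalazine and loratadine. For VPA 3 of 8 is not far above the 26.5% called in either direction. All 3 were lower, and 3 of 8 is further above the 11.0% of all that were lower. That direction was seen before the share was set beside it, and 8 genes are few.

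The other 13 compounds called none of the 8 genes. Their shares of all probe sets called were 9.54% for glybenclamide, 6.25% for dexamethasone, 2.17% for hydrochlorothiazide, 1.31% for clozapine, 0.330% for ondansetron, 0.197% for metoclopramide, 0.119% for dimethadione and 0 for azacytidine, fluconazole, methotrexate, penicillamine, thalidomide and topiramate. In limma at an unadjusted p under 0.05, 3 of the 8 genes passed in dexamethasone, 3 in glybenclamide and 3 in topiramate. Of all 21789 probe sets 4927, 5299 and 2575 passed there. In dimethadione, fluconazole and penicillamine 1 gene each passed, where 2259, 1463 and 1850 of all did. In the remaining 7 compounds 0 of the 8 passed, where 1435 (methotrexate) to 4728 (hydrochlorothiazide) of all did. All 19 comparisons share the same 3 DMSO arrays.

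**Figure D1:**
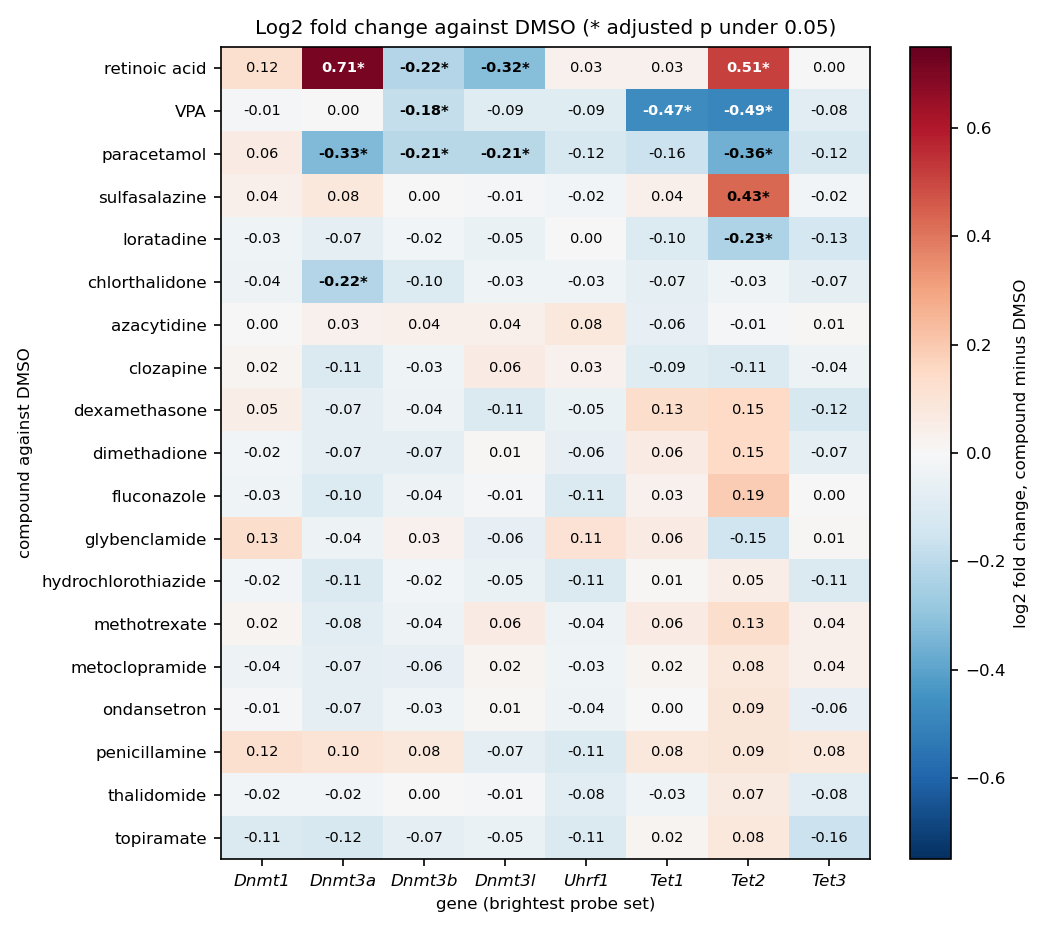
Log2 fold change against DMSO for the 8 genes (columns, brightest probe set) and 19 compounds (rows, 3 arrays per group); red is higher and blue lower, and an asterisk marks an adjusted p under 0.05. The 14 marked values run from -0.49 for Tet2 in VPA to 0.71 for Dnmt3a in retinoic acid, and the Dnmt1, Uhrf1 and Tet3 columns hold none.

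The maintenance genes Dnmt1 and Uhrf1 stayed within a narrow range. Dnmt1, the methyltransferase that copies methylation at replication, had group means of 10.97 (topiramate) to 11.20 (glybenclamide and retinoic acid). Its log2 fold changes ran from -0.11 in topiramate to 0.13 in glybenclamide. The lowest adjusted p was 0.136, in glybenclamide, where Dnmt1 had 11.23, 11.16 and 11.22 on the 3 arrays, against 11.11, 10.98 and 11.15 with DMSO. Those arrays lie just above the DMSO arrays without overlap, yet the difference did not pass the test. Over the 19 compounds the 95% intervals for Dnmt1 spanned -0.22 to 0.24, so changes of that size remain possible.

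Uhrf1, which reads half-methylated DNA and recruits DNMT1, had log2 fold changes of -0.12 in paracetamol to 0.11 in glybenclamide. Its lowest adjusted p was 0.191, in paracetamol, where the arrays read 11.05, 11.09 and 11.03, against 11.20, 11.28 and 11.07 with DMSO. The groups overlap there, and Uhrf1 overlapped DMSO in each of the 19 compounds. Its 95% intervals spanned -0.24 to 0.23.

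**Figure D2:**
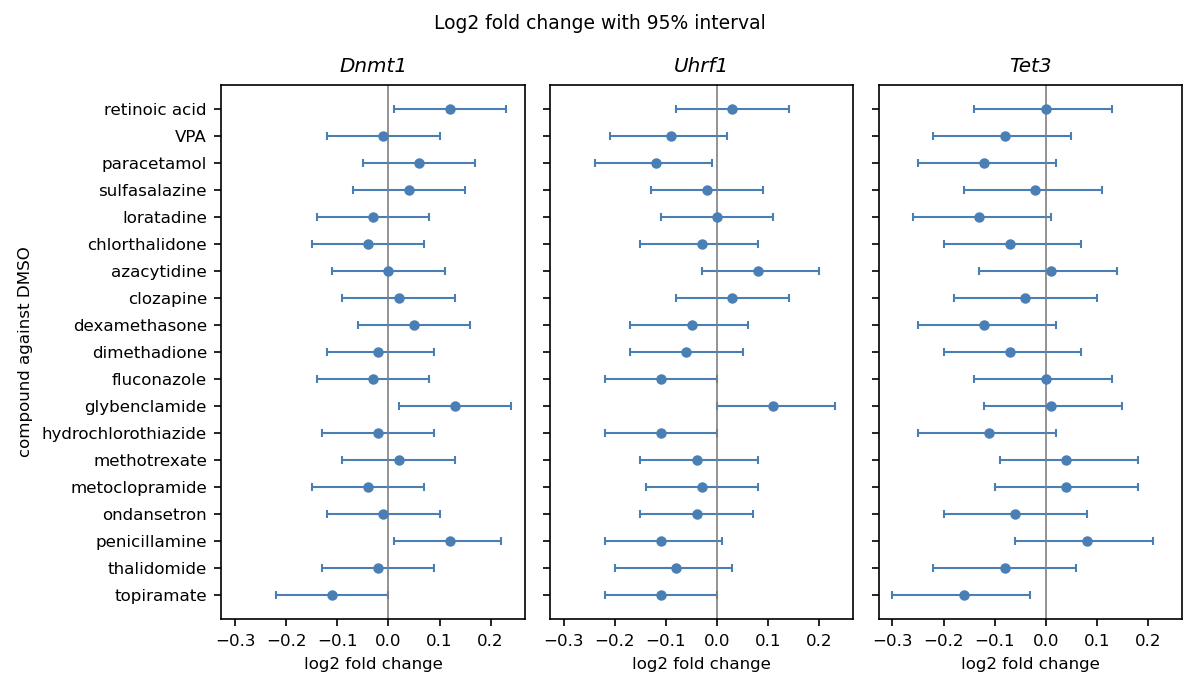
Log2 fold change against DMSO (horizontal axis) with its 95% interval for Dnmt1, Uhrf1 and Tet3 in 19 compounds (rows), 3 arrays per group. All points lie between -0.16 and 0.13, and the intervals between -0.30 and 0.24.

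Dnmt3a, which methylates new sites, gave the widest spread of the DNMT genes, up with retinoic acid and down with 2 non-teratogens. It had 10.73, 10.63 and 10.60 in retinoic acid, against 10.00, 9.92 and 9.92 with DMSO. The 3 retinoic acid arrays lie well above each DMSO array and above every other group. The log2 fold change was 0.71 ± 0.057 (SE, n = 3 per group), a 1.63-fold rise, with a limma adjusted p of 5.22e-14.

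Paracetamol lowered Dnmt3a to 9.57, 9.58 and 9.70, against 10.00, 9.92 and 9.92 with DMSO. No paracetamol array reached a DMSO array. The log2 fold change was -0.33 ± 0.057 (limma adjusted p = 5.66e-05), 79.8% of the DMSO signal. Chlorthalidone, a diuretic, gave 9.72, 9.79 and 9.67, again below every DMSO array, with a log2 fold change of -0.22 ± 0.057 (limma adjusted p = 0.0195). This call was lost without DMSO replicate 1 (adjusted p = 0.137), chlorthalidone replicate 1 (0.069) or chlorthalidone replicate 3 (0.143), and when only the 6 arrays concerned were fitted (0.131). VPA left Dnmt3a at 9.93, 9.96 and 9.94, within the DMSO arrays, with an interval of -0.12 to 0.11.

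Dnmt3b, the partner enzyme for new methylation, changed in 1 direction, down, in retinoic acid, paracetamol and VPA. It had 11.25, 11.21 and 11.12 in retinoic acid, against 11.47, 11.33 and 11.45 with DMSO, a log2 fold change of -0.22 ± 0.049 (limma adjusted p = 0.00123). In retinoic acid Dnmt3a and Dnmt3b therefore moved in opposite directions. Paracetamol gave 11.17, 11.24 and 11.20 for Dnmt3b, a change of -0.21 ± 0.049 (limma adjusted p = 0.00241). VPA gave 11.21, 11.23 and 11.26, a change of -0.18 ± 0.049 (limma adjusted p = 0.00369). The 3 compounds put Dnmt3b at about the same level, below every DMSO array. When each compound was fitted with DMSO only, 6 arrays at a time, the Dnmt3b call was lost in retinoic acid (adjusted p = 0.135) and paracetamol (0.068).

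Dnmt3l, the cofactor without catalytic activity, fell in retinoic acid and paracetamol. It had 12.07, 11.88 and 11.92 in retinoic acid, against 12.31, 12.26 and 12.25 with DMSO. All 3 retinoic acid arrays lie below DMSO, and the log2 fold change was -0.32 ± 0.051 (limma adjusted p = 6.84e-06), 80.1% of the DMSO signal. Paracetamol gave 12.04, 12.06 and 12.11, also below every DMSO array, a change of -0.21 ± 0.051 (limma adjusted p = 0.00503). VPA arrays read 12.21, 12.17 and 12.17, just under the DMSO arrays, and did not pass the test (log2 fold change -0.09, limma adjusted p = 0.198).

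**Figure D3:**
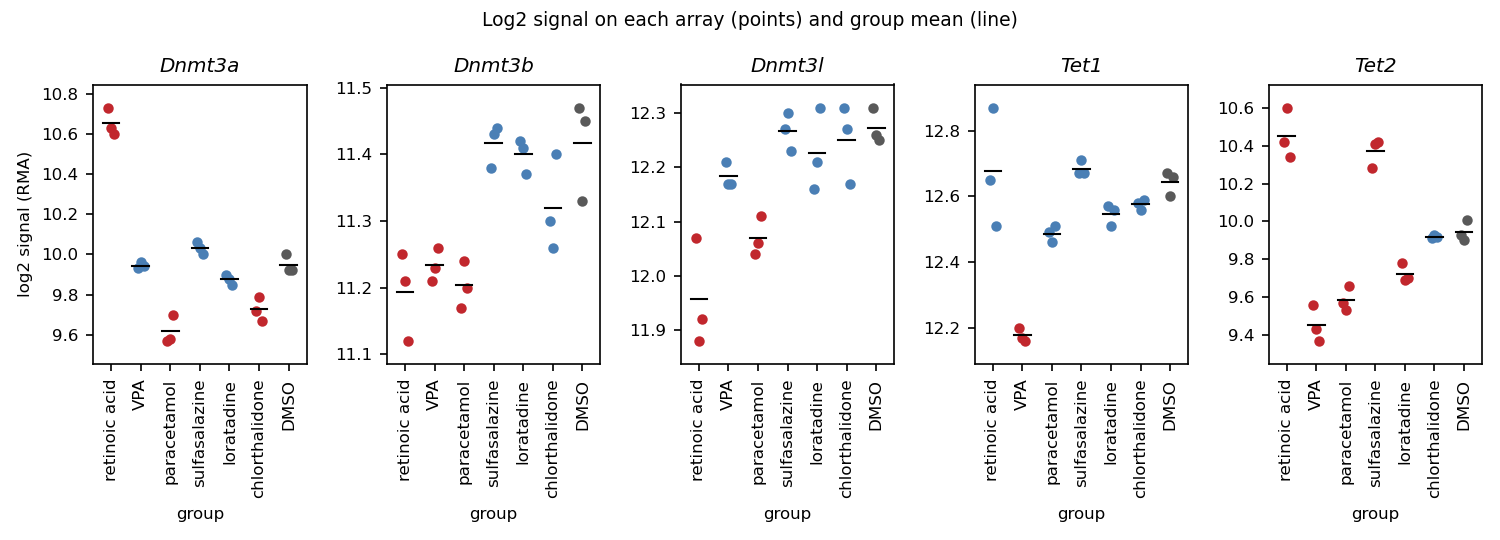
Log2 RMA signal on each array (points) and group mean (line) for the 5 genes that changed, in the 6 compounds with a call and in DMSO at the right of each panel (3 arrays per group); red points mark groups with an adjusted p under 0.05, blue the others and grey DMSO, and each panel has its own vertical axis. No red group overlaps the DMSO arrays.

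Tet1, the oxidase most associated with embryonic stem cells, fell in VPA. It had 12.20, 12.17 and 12.16 in VPA, against 12.67, 12.60 and 12.66 with DMSO. The VPA arrays are close together and lie below those of all other groups. The log2 fold change was -0.47 ± 0.063 (limma adjusted p = 6.16e-08), 72.3% of the DMSO signal. The other 2 Tet1 probe sets also fell in VPA, with log2 fold changes of -0.64 (limma adjusted p = 2.95e-10) and -0.53 (6.08e-10).

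In paracetamol the Tet1 probe sets disagreed on the call but not on the direction. The brightest had 12.49, 12.46 and 12.51, against 12.67, 12.60 and 12.66 with DMSO, and its change of -0.16 did not pass the test (limma adjusted p = 0.122). The other 2 changed by -0.29 (limma adjusted p = 0.00419) and -0.20 (0.0273), and both passed. Retinoic acid gave scattered Tet1 values of 12.65, 12.87 and 12.51 that straddle the DMSO arrays, with a log2 fold change of 0.03 and an interval of -0.10 to 0.16.

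Tet2 changed in more compounds than any other of the 8 genes, 2 higher and 3 lower. It had 10.42, 10.60 and 10.34 in retinoic acid, against 9.93, 9.90 and 10.01 with DMSO. The log2 fold change was 0.51 ± 0.067 (limma adjusted p = 7.7e-08), a 1.42-fold rise with no overlap. Sulfasalazine, an anti-inflammatory medicine, gave 10.28, 10.41 and 10.42, a change of 0.43 ± 0.067 (limma adjusted p = 3.15e-05) and a 1.34-fold rise. Sulfasalazine and retinoic acid arrays overlap each other and lie above the arrays of the next group, fluconazole (10.13, 10.17 and 10.12).

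The 3 decreases of Tet2 came with VPA, paracetamol and loratadine. VPA gave 9.56, 9.43 and 9.37, a log2 fold change of -0.49 ± 0.067 (limma adjusted p = 5.76e-08), 71.1% of the DMSO signal. Paracetamol gave 9.57, 9.53 and 9.66, a change of -0.36 ± 0.067 (limma adjusted p = 0.000145), and its arrays overlap those of VPA. Loratadine, an antihistamine, gave 9.78, 9.69 and 9.70, a smaller change of -0.23 ± 0.067 (limma adjusted p = 0.0125). Each of the 3 groups lies below every DMSO array. The loratadine call was lost without DMSO replicate 3 (adjusted p = 0.0572) or loratadine replicate 2 (0.0507).

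Tet3, a further oxidase, had group means of 7.89 in topiramate to 8.12 in penicillamine. Its log2 fold changes ran from -0.16 in topiramate to 0.08 in penicillamine, with a lowest limma adjusted p of 0.184 in loratadine. The second Tet3 probe set ranged from -0.18 to 0.14 and also passed in no compound, with a lowest adjusted p of 0.152 in retinoic acid. Intervals for the brighter probe set spanned -0.30 to 0.21.

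The 4 probe sets shared by Tdg and Tdg-ps2 gave 76 tests in a fit over all probe sets of the table, and 0 passed in limma (9 at an unadjusted p under 0.05). Log2 fold changes ran from -0.21 in dexamethasone to 0.17 in clozapine, with a lowest limma adjusted p of 0.108 in dexamethasone. At the probe set with both extremes, dexamethasone arrays read 10.95, 11.19 and 10.97 and clozapine arrays 11.47, 11.43 and 11.35, against 11.24, 11.17 and 11.34 with DMSO. Signal from the gene and from its pseudogene cannot be told apart on these probe sets.

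Ordered by level, neighbouring groups mostly overlapped. Among the 19 pairs of neighbours in the order of 20 groups, 17 overlapped for Dnmt3a, Tet1 and Tet2, 18 for Dnmt1, and all 19 for Dnmt3b, Dnmt3l, Uhrf1 and Tet3. Sorting puts groups of like level side by side, so overlap of neighbours is common by construction. The same counts over all probe sets are not given here, so these counts say nothing particular to the 8 genes. For Dnmt3a the gap below retinoic acid (mean 10.66, next penicillamine at 10.05) is 1 of the 2 breaks. For Tet1 the breaks separate VPA (12.18) from paracetamol (12.48) and paracetamol from loratadine (12.55). For Tet2 they separate sulfasalazine (10.37) from fluconazole (10.14) and paracetamol (9.59) from loratadine (9.72). The median SD within a group was 0.03 for Dnmt3b and 0.07 for Tet3, the lowest and highest of the 8 genes.

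Azacytidine, a cytidine analog that traps DNA methyltransferases once built into DNA, changed none of the 8 transcripts detectably in 6 h. In limma 0 of the 8 passed at an adjusted p under 0.05, and 0 at an unadjusted p under 0.05. Over all 21789 probe sets 1757 had an unadjusted p under 0.05 and 0 passed adjusted. Log2 fold changes of the 8 genes ran from -0.06 (Tet1) to 0.08 (Uhrf1), with a lowest adjusted p of 0.759.
The Dnmt1 arrays read 11.06, 11.11 and 11.06 in azacytidine, against 11.11, 10.98 and 11.15 with DMSO, with an interval of -0.11 to 0.11. Dnmt3a had an interval of -0.08 to 0.15, Dnmt3b of -0.06 to 0.14 and Dnmt3l of -0.06 to 0.14. The dose is uncertain, since the labels disagree on it. Set directly against methotrexate, an antifolate, azacytidine differed in 0 of the 8 genes, with a lowest limma adjusted p of 0.354. There 0.643% of all probe sets were called. At an unadjusted p under 0.05 there were 2 of the 8 genes and 2812 of all 21789 probe sets. The 2 genes were Uhrf1 and Tet2. Uhrf1 had 11.23, 11.30 and 11.27 in azacytidine, against 11.14, 11.15 and 11.15 in methotrexate. Tet2 had 10.01, 9.95 and 9.85 in azacytidine, against 10.10, 10.02 and 10.10 in methotrexate.

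VPA, an antiepileptic that inhibits histone deacetylases, was set directly against 2 other antiepileptic compounds at 1 mM, topiramate and dimethadione, and against retinoic acid and loratadine, whose doses differ. Tet1 and Tet2 were lower in VPA than in each of the 4 compounds. Against topiramate 2 of the 8 genes differed, where 30.4% of all probe sets were called (18.1% higher, 12.2% lower). Tet1 had 12.20, 12.17 and 12.16 in VPA, against 12.63, 12.68 and 12.67 in topiramate, a difference of -0.48 (limma adjusted p = 2.63e-08). Tet2 had 9.56, 9.43 and 9.37 in VPA, against 10.08, 9.99 and 10.00 in topiramate, a difference of -0.57 (limma adjusted p = 1.62e-09). Neither gene overlaps between the 2 compounds. For the other 6 genes the differences lay between -0.11 and 0.12.

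Against dimethadione the same 2 genes differed, where 27.6% of all were called (14.2% higher, 13.4% lower). Tet1 differed by -0.53 (limma adjusted p = 3.47e-09) and Tet2 by -0.64 (8.04e-11), again without overlap. Without dimethadione replicate 2, Dnmt3b and Dnmt3l passed as well, 4 in all. Against loratadine 3 of the 8 genes were lower, where 29.4% of all were called (15.9% higher, 13.6% lower). They were Tet1 (-0.37, limma adjusted p = 7.93e-06), Tet2 (-0.27, 0.00152) and Dnmt3b (-0.16, 0.00821). Under quantile normalisation the Dnmt3b difference was -0.08 and no longer passed (limma adjusted p = 0.111).

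Against retinoic acid 4 of the 8 genes differed, where 33.1% of all were called (18.4% higher, 14.7% lower). Tet2 had 9.56, 9.43 and 9.37 in VPA, against 10.42, 10.60 and 10.34 in retinoic acid, a difference of -1.0 ± 0.067 (limma adjusted p = 3.45e-17). It fell in VPA and rose in retinoic acid relative to DMSO, so it is 49.9% as high in VPA. Dnmt3a was lower in VPA by -0.71 (limma adjusted p = 1.36e-14) and Tet1 by -0.50 (9.35e-09). Dnmt3l was higher in VPA by 0.23 (limma adjusted p = 0.000414). Dnmt3b, lowered by both compounds, differed by 0.04 with an interval of -0.06 to 0.14. Dnmt1 (-0.13, limma adjusted p = 0.0649) and Uhrf1 (-0.13, 0.0757) came close to the threshold, and each passed under some alternatives. In the 4 contrasts the counts of 2 to 4 of 8 genes are near the shares of all probe sets called in either direction. All but Dnmt3l against retinoic acid were lower in VPA, where 12.2% to 14.7% of all were lower. The counts of lower genes lie above those shares, though 8 genes are few and the direction was seen before the share was picked. The 4 contrasts share the same 3 VPA arrays, and Tet1 and Tet2 are called in each, so they are not separate results. The shares are over all probe sets, dim ones included, while the 8 genes lay above every array median.

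**Figure D4:**
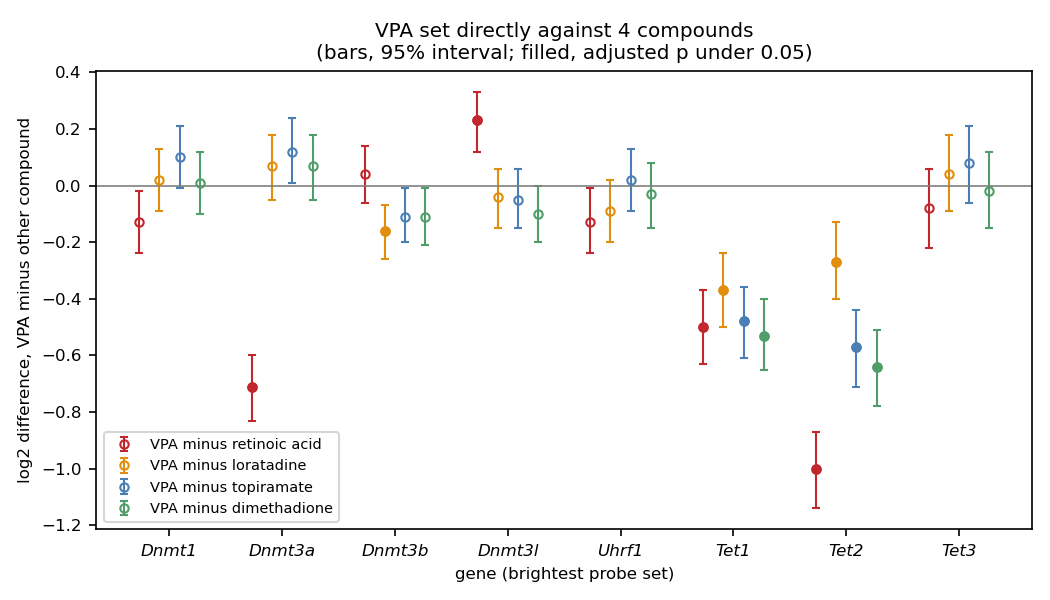
Log2 difference between VPA and each of 4 compounds (VPA minus the other, vertical axis) with its 95% interval for the 8 genes, 3 arrays per group; filled points have an adjusted p under 0.05. Tet1 and Tet2 lie below 0 in each comparison, from -1.0 to -0.27, and Dnmt3a stands apart for retinoic acid alone among the 4, at -0.71.

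Between teratogens and non-teratogens as classes, no difference was detected in any of the 8 genes. The comparison used the 19 compound means, 10 against 9, and limma called 0 of the 8 genes and 0 of all probe sets. At an unadjusted p under 0.05 there were 0 of the 8 genes and 955 of all. Dnmt3a came closest, with 9.98 ± 0.246 in teratogens and 9.84 ± 0.115 in non-teratogens (SD of compound means), a difference of 0.14 ± 0.080 (SE). Its limma adjusted p across all probe sets was 0.976, and unadjusted it was 0.0933. Tet2 averaged 10.03 ± 0.246 in teratogens and 9.92 ± 0.226 in non-teratogens, a difference of 0.11 ± 0.096. The compounds that moved Dnmt3a and Tet2 belong to both classes.

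In 4 of 5 lists of genes that work with these enzymes VPA gave more calls than any other compound, as it did over all probe sets. Over all probe sets VPA called 15.5% higher and 11.0% lower, and the counts below are to be read against such shares. Of 22 measured partners in maintenance and targeting, VPA lowered 8 and raised 1, with a list median of -0.11 against -0.01 over all probe sets. Nsd1, a histone methyltransferase, had 10.30, 10.17 and 10.17 in VPA, against 11.03, 10.94 and 11.08 with DMSO, a change of -0.80 (limma adjusted p = 6.36e-14). Prdm14, known in mouse embryonic stem cells for repressing the new methylation enzymes, changed by -0.77 (limma adjusted p = 3.37e-11). Prdm14 signal was weak in VPA, with 7.06, 7.27 and 7.31, below every array median, against 7.97, 7.93 and 8.03 with DMSO. Cdca7, a helper of a chromatin remodeller, changed by -0.36 in VPA (limma adjusted p = 2.29e-07). Kdm1b, a histone demethylase, rose by 0.62 (limma adjusted p = 2.69e-10). Paracetamol lowered 5 of the 22 partners and raised 0, where 4.15% of all probe sets were lower. Retinoic acid raised 3 and lowered 0, where 5.90% of all were higher. Loratadine raised 1 and lowered 4, where 10.9% of all were higher and 8.26% lower. Dexamethasone raised 0 and lowered 3, where 4.74% of all were lower.

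Among 12 measured readers of methylated or unmethylated CpG, VPA lowered 4 and raised 2, where 11.0% of all probe sets were lower and 15.5% higher. Mbd3 fell by 0.33 (limma adjusted p = 1.95e-05) and Mbd2, its counterpart in NuRD repressor complexes, rose by 0.31 (0.000814). In retinoic acid 1 reader rose and 1 fell: Mbd6 changed by 0.61 (limma adjusted p = 3.38e-07) and Kdm2b, which binds unmethylated CpG, by -0.29 (0.000119). Loratadine raised 1 reader and lowered 3, where 10.9% of all were higher and 8.26% lower. Paracetamol raised 2 and lowered 1, where 4.61% were higher and 4.15% lower. The list medians were -0.06 in VPA and 0.06 in retinoic acid, against -0.01 and -0.03 over all probe sets.

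Of 21 measured genes of demethylation and base excision repair, VPA lowered 9 and raised 4, where 11.0% of all probe sets were lower and 15.5% higher. The list median was -0.11, against -0.01 over all. Gadd45g and Gadd45a, stress genes linked to repair-coupled demethylation, changed by -0.57 (limma adjusted p = 2.98e-11) and -0.52 (3.02e-10) in VPA, and Cxxc5, a CXXC zinc finger gene, by -0.51 (1.66e-07). Loratadine raised 7 of the 21 and lowered 1, where 10.9% of all were higher and 8.26% lower. Sulfasalazine raised 5 and lowered 0, where 5.40% of all were higher, and glybenclamide raised 4 and lowered 0, where 6.79% were. Apobec1, a cytidine deaminase, had 8.93, 8.79 and 9.01 in loratadine, against 8.14, 8.17 and 8.14 with DMSO, a change of 0.76 (limma adjusted p = 1.69e-10).

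In the methyl donor cycle, which makes S-adenosylmethionine, VPA raised 3 and lowered 3 of 12 measured genes, where 15.5% of all probe sets were higher and 11.0% lower. Mtr, methionine synthase, rose by 0.31 (limma adjusted p = 0.00196) and Mtrr, the reductase that reactivates it, fell by 0.45 (5.2e-10). Loratadine raised 2 and lowered 1, where 10.9% of all were higher and 8.26% lower. There Shmt2, a mitochondrial folate enzyme, changed by 0.33 (limma adjusted p = 1.86e-06) and Mat1a, an S-adenosylmethionine synthetase, by -0.29 (0.00618). Mat1a signal was weak, with 6.55, 6.61 and 6.59 in loratadine, against 6.76, 7.03 and 6.83 with DMSO, below every array median. Retinoic acid, sulfasalazine and glybenclamide raised 2 each and lowered 0, where 5.90%, 5.40% and 6.79% of all were higher. With 12 genes, counts of 1 to 3 are near such shares.

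Of 18 measured germline genes known to be silenced by DNA methylation, no compound raised more than 4. Loratadine raised 4 and lowered 1, where 10.9% of all probe sets were higher and 8.26% lower. Glybenclamide raised 4, where 6.79% of all were higher and 2.75% lower, and sulfasalazine 3, where 5.40% were. VPA raised 3 and lowered 1, near its shares of 15.5% and 11.0% over all. Sycp3, of the synaptonemal complex, had 10.17, 9.95 and 10.08 in loratadine, against 9.23, 8.87 and 9.02 with DMSO, a change of 1.02 (limma adjusted p = 2.69e-08). Mael rose by 0.46 in sulfasalazine (limma adjusted p = 0.00213), Ddx4 by 0.41 in glybenclamide (0.00548) and Sycp1 by 0.43 in ondansetron (0.0139). Sycp1 signal was weak, with 6.39, 6.62 and 6.57 in ondansetron, against 6.15, 5.91 and 6.24 with DMSO, below every array median. For Sycp3, Mael, Ddx4 and Sycp1 alike, DMSO replicate 2 was the lowest DMSO array. List medians were 0.14 in glybenclamide, 0.11 in sulfasalazine and 0.08 in loratadine, against -0.03, -0.01 and -0.04 over all probe sets. Dexamethasone lowered 3 and raised 0, where 4.74% of all were lower and 1.51% higher.

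**Figure D5:**
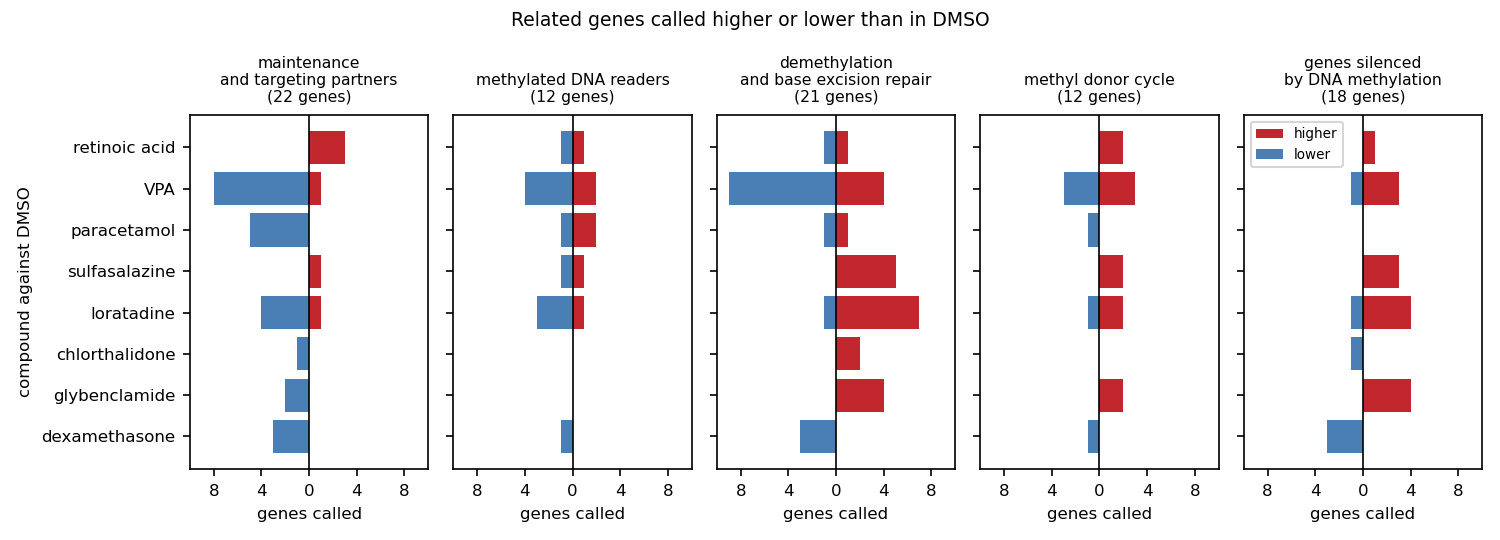
Number of genes called higher (red, to the right) and lower (blue, to the left) than in DMSO at an adjusted p under 0.05, for 5 lists of related genes (panels) in 8 compounds (rows). VPA has the most genes called in the lists of partners (8 lower, 1 higher) and of demethylation and repair (9 lower, 4 higher).

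Of 15 pluripotency markers, 9 fell and 0 rose in VPA, 8 fell and 0 rose in paracetamol, and 0 fell and 3 rose in retinoic acid. The shares of all probe sets that were lower were 11.0% in VPA and 4.15% in paracetamol, and 5.90% were higher in retinoic acid. The list medians were -0.29, -0.18 and 0.05 in these 3 compounds, against -0.01, 0.01 and -0.03 over all probe sets. The mean log2 signal of these markers was 11.28 to 11.31 on the VPA arrays, 11.42 to 11.44 on the paracetamol arrays and 11.62 to 11.72 on the retinoic acid arrays, against 11.59 to 11.63 on the DMSO arrays. In VPA Nanog had 11.93, 12.00 and 11.93, against 12.65, 12.64 and 12.61 with DMSO, a change of -0.68 (limma adjusted p = 1.79e-14), and Tbx3 and Zfp42 fell by 0.67 and 0.52. Lefty1 fell by 0.78 in glybenclamide, where it was the 1 marker called and 2.75% of all probe sets were lower. In loratadine 3 of these markers rose and 1 fell, in sulfasalazine 1 rose and 1 fell, and in chlorthalidone 2 fell. Of all probe sets 10.9% were higher and 8.26% lower in loratadine, 5.40% and 3.50% in sulfasalazine, and 1.14% lower in chlorthalidone. The marker mean was 11.64 to 11.66 in loratadine, 11.67 to 11.70 in sulfasalazine and 11.54 to 11.58 in chlorthalidone, against 11.59 to 11.63 with DMSO. Dexamethasone, which called none of the 8 genes, lowered 3 markers (mean 11.36 to 11.56), where 4.74% of all were lower. Clozapine raised 2 and hydrochlorothiazide lowered 1, where 1.31% and 2.17% of all were called. Of 14 feeder fibroblast markers 1 rose and 1 fell in VPA, 1 rose and 1 fell in retinoic acid, and none passed in paracetamol. Of all probe sets 15.5% were higher and 11.0% lower in VPA, and 5.90% and 3.92% in retinoic acid. The feeder marker mean was 8.90 to 8.96 in VPA, 8.90 to 8.97 in paracetamol and 8.86 to 8.98 in retinoic acid, against 8.93 to 8.98 with DMSO. In loratadine 1 feeder marker rose and 3 fell, in sulfasalazine 1 fell and in chlorthalidone none passed, against the shares of all probe sets above. The mean was 8.91 to 8.98 in loratadine, 8.89 to 8.93 in sulfasalazine and 8.91 to 8.97 in chlorthalidone. Thy1 rose by 0.48 in VPA and Pdgfrb by 0.29 in retinoic acid. The part of these markers in the changes of the methylation genes was not tested.

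Over the 20 group means Tet1 and Tet2 had the highest correlation of the 28 pairs, a Pearson r of 0.74, and 0.57 over the 17 groups without retinoic acid, VPA and paracetamol. Dnmt3b and Dnmt3l had an r of 0.67 over 20 groups and -0.13 over 17. Dnmt3a and Dnmt3b had an r of -0.16 over 20 groups and 0.84 over 17. The 3 compounds left out are those with the most of the 8 genes called. Among the 17 groups penicillamine had the highest mean of both genes, and its replicate 2 the highest values (10.27 and 11.62). That array had the highest median of all arrays (7.786), and its part in the correlation was not tested. These values are descriptions, since the groups share an experiment and array scaling.

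By the same measure over 20 groups, the genes most like each member were Rrm1 (0.879) and Zfp318 (0.818) for Dnmt1, Gatb (0.829) and Vars (0.754) for Uhrf1, Cpne5 (0.942) and Fam81a (0.928) for Dnmt3a, and Ildr1 (0.889) and Fam169b (0.86) for Dnmt3b. For Dnmt3l they were Tfeb (0.908) and Stmn2 (0.902). For the oxidases they were Arid1a (0.952) and Zbtb8a (0.93) for Tet1, Ino80d (0.897) and Rarg (0.895) for Tet2, and Pds5b (0.795) and Zbtb37 (0.78) for Tet3. They were picked as the highest of all genes tested, so their values carry no test.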

How the data were processed

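RNA from R1 cells was labelled as biotinylated cDNA and hybridised to Affymetrix mouse gene arrays, per the labels' protocols. The deposited values are log2 signals that the authors made with RMA, per the submitters' processing notes; the sources used here name no version, options or genome build, so these are not given. RMA shares information across arrays and pulls in extreme values, which can shrink fold changes. Of 35556 probe sets, 21789 with 1 gene symbol were tested, 1621 with several symbols were used only in an alternative and for Tdg, and 12146 had no entry.

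The log2 values were used as deposited. A mean per group was fitted to all 60 arrays with limma 3.58.1 in R 4.3.3 (40 residual and 7.31 prior degrees of freedom), with Benjamini-Hochberg adjustment over all 21789 probe sets of a contrast. An adjusted p under 0.05 is a call. Classes were compared on compound means. Array data have no read depth, and 3 arrays per group limit the precision. The fit was tested on simulated data.

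The 8 genes are named whatever their result. For each other list the called pairs of a gene and a compound with the largest change are named, at most 4, and for each member the 2 genes with the highest correlation. The members and the lists were chosen with earlier results of these data known. Some genes of the lists were not analysed here, and counts are over the measured ones. The alternatives were quantile normalisation, leaving out dim probe sets, all probe sets, models of 6 arrays, eBayes with trend and robust settings, the interquartile range or the letter b of the array titles as a covariate, the other 18 compounds as the reference, other probe sets, and leaving out arrays.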

Additional observations from a re-analysis of the deposited data

Results flagged for a closer look

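Among the class means, 16 groups (8 genes in 10 teratogens or 9 non-teratogens) were checked for a compound that stands apart by Dixon's ratio, the gap to the nearest compound over the whole range. Such a check marks about 1 group in 20 by chance, and 5 were marked. The genes share arrays and compounds, so the 16 checks are not independent. All 5 marks fall on values already called against DMSO, so they add no support. The same check over all probe sets is not given here. Dnmt3a with retinoic acid had a ratio of 0.726, Dnmt3l with retinoic acid 0.558, Tet1 with VPA 0.675 and Tet2 with VPA 0.48 among the teratogens, and Dnmt3l with paracetamol had 0.554 among the non-teratogens. Tet2 moved in opposite directions in VPA and retinoic acid, and the direct contrast, VPA minus retinoic acid, was -1.0 (limma adjusted p = 3.45e-17).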

How the results depend on the processing

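No paired analysis was possible because the labels number the arrays serially, with no number shared between groups, and order alone pairs no arrays. The direction of every called change held under all alternatives run, and 10 of the 14 calls against DMSO passed in each. Some counts of genes called moved. Quantile normalisation called 1 in glybenclamide (Tet2), a model of 6 arrays 0 in chlorthalidone, and the interquartile range as a covariate 2 in loratadine (adding Tet3). That covariate gave 4 in VPA (adding Dnmt3l) and 3 each in VPA minus topiramate and VPA minus dimethadione (adding Dnmt3b). VPA minus retinoic acid had 6 with that covariate or without dim probe sets (adding Dnmt1 and Uhrf1). It had 5 under quantile normalisation (adding Dnmt3b) or with the letter b as a covariate (adding Uhrf1). Quantile normalisation gave 3 in VPA minus topiramate (adding Dnmt1). Without dim probe sets VPA minus dimethadione had 3 (adding Dnmt3b). With the other 18 compounds as the reference there were 2 in dexamethasone (Tet1, Tet2), 3 in glybenclamide (Dnmt1, Uhrf1, Tet2), 2 in penicillamine (Dnmt3a, Dnmt3b), 2 in sulfasalazine (adding Dnmt3a) and 1 in topiramate (Dnmt1). Penicillamine replicate 2 was the highest of its 3 arrays for Dnmt3a (10.27) and Dnmt3b (11.62). It also had the highest median of all arrays (7.786). Paracetamol and retinoic acid had 5 each with the other 18 compounds as the reference, adding Tet1 and Dnmt1. The shares of all probe sets called under the alternatives are not given here, so the counts under them have no background. Without the 3 arrays of low interquartile range, chosen after seeing the data, dexamethasone had 1 (Tet1) and VPA minus retinoic acid 5 (adding Uhrf1). Leaving out 1 array at a time gave 0 to 1 in chlorthalidone and 0 to 1 in loratadine. In such fits dexamethasone had 0 to 1 (1 without its replicate 3). VPA minus dimethadione had 2 to 4 (4 without dimethadione replicate 2). VPA minus retinoic acid had 4 to 5 (5 without retinoic acid replicate 3, adding Dnmt1). Dnmt3b in VPA minus loratadine lost its call under quantile normalisation (adjusted p = 0.111). The cause of these shifts was not tested. With 3 arrays per group, changes smaller than the intervals given could not be seen.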
